A study of Mus musculus with 6 samples.

Results

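The Hox genes of the mouse lie in 4 clusters, HoxA to HoxD, and the peaks of 5 chromatin proteins at these clusters in embryonic stem cells are described here. The peaks were chosen by position alone: a peak counted as a Hox peak when it overlapped 1 of 4 windows of the mm9 build by at least 1 bp. The windows were chr6:52090000-52230000 for HoxA (140 kb), chr11:96040000-96240000 for HoxB (200 kb), chr15:102740000-102880000 for HoxC (140 kb) and chr2:74490000-74615000 for HoxD (125 kb). They held 68 of the 70533 peaks of the series. Of these, 24 were Nanog peaks, 16 Tgif1, 14 Hdac1, 13 Tgif2 and 1 Smad3. A list of 38 Hox genes was named for the clusters, from Hoxa2 to Hoxa13, Hoxb1 to Hoxb13, Hoxc4 to Hoxc13 and Hoxd1 to Hoxd13. Gene positions in mm9 were not used here, so no peak is tied to a gene, and the windows' labels could not be checked against an annotation of their own build.

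All libraries came from the J1 line of mouse embryonic stem cells, which carried BirA, a bacterial enzyme that adds biotin to tagged proteins, and were grown with leukemia inhibitory factor. Tgif1, Hdac1 and Smad3 were pulled down with antibodies, and Tgif2 and Nanog with streptavidin beads. There was 1 library and 1 peak list per protein, so no value has a replicate check, and the mock library of BirA cells was not analysed here. Intervals below cover counting error only, over peaks or regions, which are not biological replicates.

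Hox genes encode homeodomain transcription factors that give cells their position along the body axis. Within a cluster they are switched on in the order in which they lie on the chromosome, with low-numbered genes active earlier and nearer the head. In embryonic stem cells the clusters are known as largely silent chromatin under Polycomb control, rich in CpG islands, which opens during differentiation. Tgif1 and its paralog Tgif2 are homeodomain corepressors that recruit histone deacetylases, and Hdac1 is one of these enzymes. Nanog is a homeodomain protein that helps keep stem cells undifferentiated, and Smad3 acts in the nucleus on signals of the TGF-beta family.

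Promoters of the Hox genes are shown first, because their base composition and the Tgif core motif could be read from sequence by gene symbol. The RefSeq promoter table, in the build GRCm38.p6, matched 22 of the 38 genes with 24 promoters of 300 bases each. These positions belong to another build and cannot be laid over the peaks. The printed stretches are the 250 bases before the start of the gene, with the core TGTCA, or TGACA where it lies on the opposite strand, in capitals. Hoxa2 (chr6:52164832-52165081, minus strand) and Hoxb1 (chr11:96365508-96365757, plus strand) are genes of the early, low-numbered end of their clusters and are shown for the motif. Hoxa13 (chr6:52260881-52261130, minus strand), at the high-numbered end of HoxA, is shown for its composition.
Hoxa2: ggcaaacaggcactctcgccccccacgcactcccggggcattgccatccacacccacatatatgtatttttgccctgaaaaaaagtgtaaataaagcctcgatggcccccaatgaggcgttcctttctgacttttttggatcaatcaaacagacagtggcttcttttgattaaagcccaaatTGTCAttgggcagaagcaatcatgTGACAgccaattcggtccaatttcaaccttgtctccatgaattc
Hoxb1: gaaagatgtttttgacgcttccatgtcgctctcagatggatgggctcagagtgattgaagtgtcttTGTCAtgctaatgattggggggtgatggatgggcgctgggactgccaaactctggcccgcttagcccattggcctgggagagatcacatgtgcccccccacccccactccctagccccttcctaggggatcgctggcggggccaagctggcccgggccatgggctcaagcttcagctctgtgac
Hoxa13: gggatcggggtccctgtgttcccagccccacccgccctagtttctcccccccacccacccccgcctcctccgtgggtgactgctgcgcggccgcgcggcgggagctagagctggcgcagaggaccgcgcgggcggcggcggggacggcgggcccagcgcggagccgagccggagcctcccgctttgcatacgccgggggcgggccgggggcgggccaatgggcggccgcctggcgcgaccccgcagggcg

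The Hox promoters held more CpG than the median promoter, whereas the Tgif core was not more frequent in them. The number of CpG dinucleotides per 300 bases ranged from 4 to 45, with a median of 14.5, against a median of 7 over the 32851 promoters of the table, and 20 of the 24 lay above that value. The Hoxa13 promoter had the most, 45, at a GC content of 81%. The core TGTCA, searched on both strands, was present in 10 of the 24 Hox promoters (41.7%) and in 45.4% of all promoters. They were 4 of 10 promoters of HoxA, 2 of 3 of HoxB, 0 of 1 of HoxC and 4 of 10 of HoxD. The paired form, TGACA followed anywhere downstream by TGTCA, which contains the core, was found in 0 of the 24 and in 4.60% of all. In the Hoxa2 sequence above the pair stands in the opposite order. The Smad box CAGACA was present in 4 Hox promoters (16.7%, against 21.0% of all) and the palindrome GTCTAGAC in 0 (0.213% of all). These are matches of letters and do not show binding.

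In every cluster the Nanog list had as many peaks as any other list or more. The HoxD window held 6 Nanog peaks, a count that 2.94% of 1427 other windows of 125 kb on chromosome 2 reached. The HoxC window also held 6, reached by 3.22% of 714 windows on chromosome 15. In HoxB there were 8, reached by 5.74% of 592 windows on chromosome 11, and in HoxA 4, reached by 6.04% of 1043 windows on chromosome 6. Per 100 kb this was 2.86 Nanog peaks in HoxA, 4 in HoxB, 4.29 in HoxC and 4.80 in HoxD, where the mean of the other windows ran from 0.570 to 1.04. In each of the 4 clusters, then, fewer than 10% of the other windows had as many Nanog peaks. The share was 12.6% for HoxA against windows with at least 1 peak of any list, and 11.8% for HoxD among peaks that reached the median tag number.

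The corepressor lists were less even. Tgif1 had 3 peaks in HoxA (6.81% of windows had as many), 6 in HoxB (15.4%), 3 in HoxC (13.9%) and 4 in HoxD (7.64%). Tgif2 had 4 in HoxA (4.6%), 4 in HoxB (29.7%), 3 in HoxC (15.7%) and 2 in HoxD (24%). Hdac1 had 1 peak in HoxA (30.4%), 5 in HoxB (19.8%), 4 in HoxC (9.1%) and 4 in HoxD (7.64%). The Tgif2 counts of HoxB and HoxD and the Hdac1 counts of HoxA and HoxB therefore lay near those of many ordinary windows. Tgif1 in HoxB and HoxC, Tgif2 in HoxC and Hdac1 in HoxC also lay below the 95th percentile of the other windows. Against windows on all autosomes, the Tgif1 share was 12.8% in HoxA and 6.57% in HoxB, so their order turned. The Tgif2 shares were 9.91% and 15.3%, and the Hdac1 shares 37.5% and 9.31%. By peak count HoxA was the cluster with the most Tgif2 and the fewest Hdac1 peaks relative to its chromosome. The Hdac1 part rests on 1 peak and did not hold in every setting. By bases covered the Hdac1 ratio was 2.26 in HoxA and 1.68 in HoxB. Among peaks that reached the median tag number it was 3.40 and 1.53. The single Smad3 peak lay in HoxB, where 12.5% of windows had at least 1. The HoxA, HoxC and HoxD windows contained 0, as did 95.1% of windows on chromosome 6, 95.8% on chromosome 15 and 94.6% on chromosome 2, so their lack of Smad3 peaks is the ordinary state in a list of 1226 peaks.

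**Figure D1:**
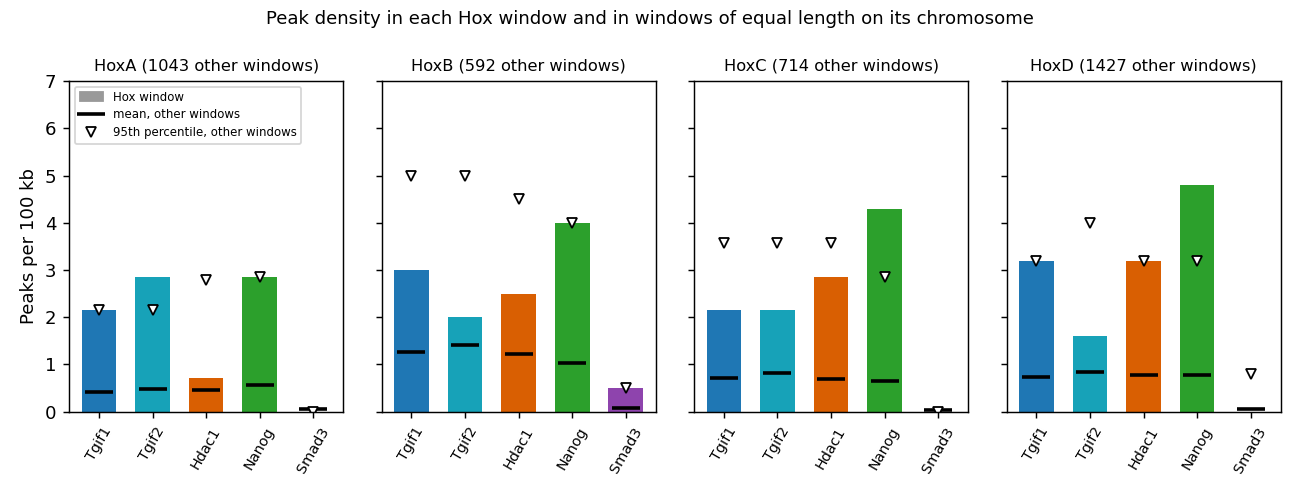
Peaks per 100 kb of the 5 factors (bars) in each Hox window, with the mean (black line) and the 95th percentile (open triangle) of windows of equal length laid end to end along the same chromosome. The Nanog bar reaches or passes the triangle in all 4 panels, from 2.86 in HoxA to 4.80 in HoxD. The Tgif1 bars lie below it in HoxB and HoxC. So do the Tgif2 bars in HoxB (2), HoxC (2.14) and HoxD (1.60), and the Hdac1 bars in HoxA, HoxB and HoxC.

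Over the 4 windows together, Nanog had 5.04 times the peaks of the mean window (exact Poisson 95% interval 3.23 to 7.50), Tgif1 3.17 times (1.81 to 5.14), Hdac1 2.77 times (1.52 to 4.65) and Tgif2 2.27 times (1.21 to 3.88). For the 1 Smad3 peak the ratio was 2.91 (0.0736 to 16.2), which leaves it unresolved. All these intervals treat peaks as independent, but peaks were clumped. The Tgif2 count of the 592 other windows on chromosome 11 had a mean of 2.83 and a maximum of 22. The intervals are therefore likely too narrow, also for the other 4 lists. Many of the other windows were empty: 52.1% of those on chromosome 6, 25.5% on chromosome 11, 50.4% on chromosome 15 and 44.0% on chromosome 2 had no peak of any list. Against windows with at least 1 peak the ratios were 2.99 for Nanog, 1.92 for Tgif1, 1.68 for Hdac1 and 1.38 for Tgif2. With only the peaks that reached the median tag number of their list, the Tgif1 ratio was 1.94 and the Tgif2 ratio 1.35. The intervals of the 4 longer lists overlapped, and the difference between factors was not tested.

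Long stretches of the clusters had no peak of any list, which is not particular to the Hox windows. Of the other windows, 52.1% on chromosome 6, 25.5% on chromosome 11, 50.4% on chromosome 15 and 44.0% on chromosome 2 had no peak at all. Stretch lengths, covered shares over all lists and densest parts were not computed for other windows. Peaks covered 36081 bp, or 5.96% of the 605 kb, from 4.24% of HoxA to 7.09% of HoxC and HoxD. The longest stretch without a peak was 66.3 kb in HoxB (chr11:96065780-96132066) and 61.9 kb in HoxA (chr6:52109544-52171483), 44.2% of that window. It was 41.2 kb in HoxC and 27.9 kb in HoxD. The densest 15 kb, by summit, held 10 of 16 peaks in HoxC, 11 of 24 in HoxB, 6 of 16 in HoxD and 5 of 12 in HoxA. The 15 kb length was chosen after the positions were seen.

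**Figure D2:**
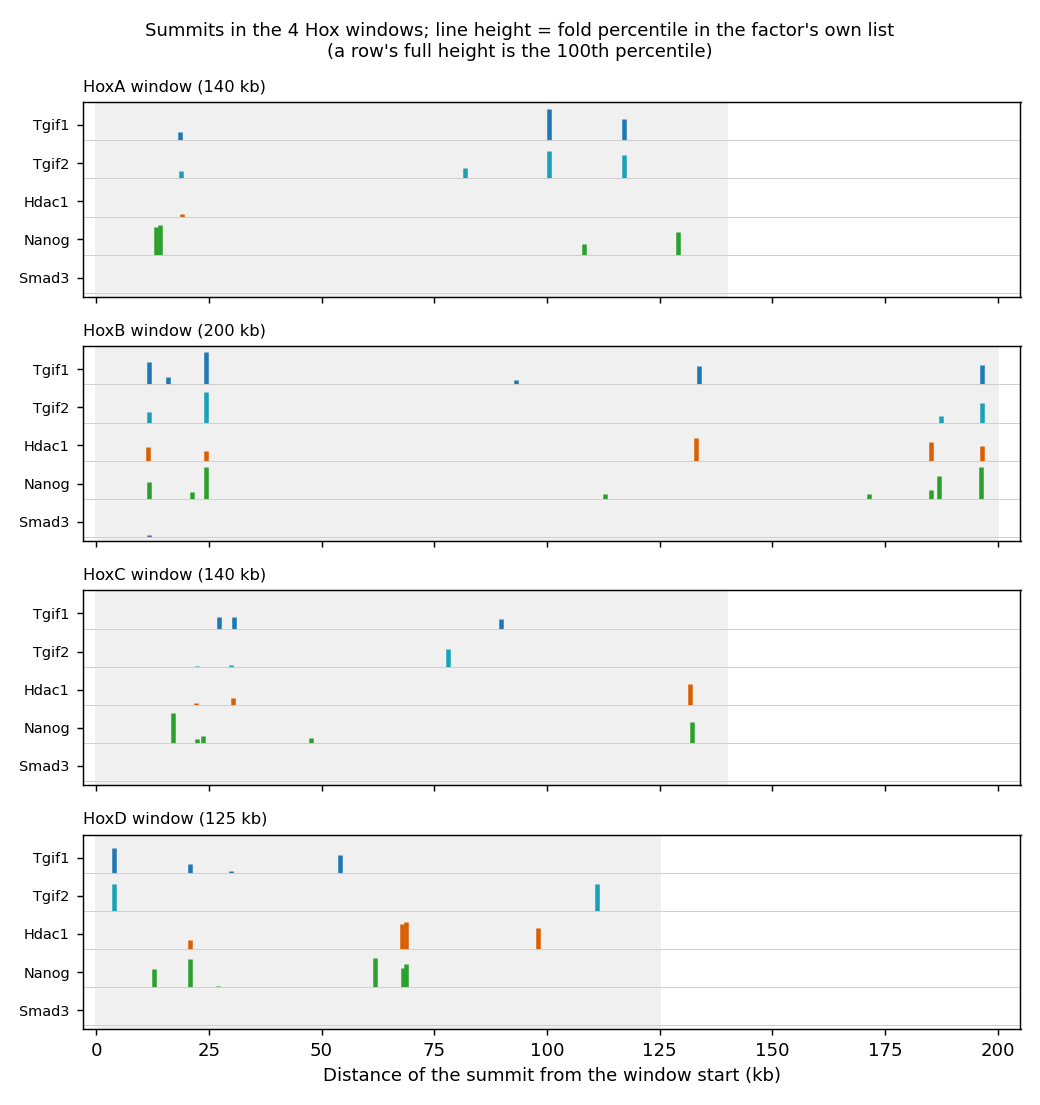
Position of each peak's summit as distance from the window start (kb) in the 4 windows (grey), 1 row per factor, with line height as the percentile of the peak's fold enrichment in its own list. The long empty stretches of HoxA (61.9 kb) and HoxB (66.3 kb) and the stack of lines near 24 kb and 196 kb in HoxB can be seen.

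Gene order, though not position, was taken from RefSeq: on rising coordinates the genes run from Hoxa2 to Hoxa13 in HoxA, but from the high-numbered to the low-numbered genes in the other clusters. By start position there was 1 exception in HoxB and 1 in HoxD. Splitting each window at its middle, the side towards the high-numbered genes, which act late and towards the tail, had 41 peaks and the other side 27. HoxC contributed most of this, with 12 against 4, while HoxB had 12 on each side. Of the Tgif1 peaks 12 lay on the high-numbered side and 4 on the other. The numbers were 8 and 5 for Tgif2, 14 and 10 for Nanog, and 6 and 8 for Hdac1. Gene positions were not used, so the middle of a window need not part the high-numbered from the low-numbered genes. This split was chosen after the positions were seen and was not tested.

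HoxB held every region of the 4 windows that carried 4 or 5 factors. Regions here are unions of overlapping peaks, and there were 3 of this kind. They made up 7.32% of the 41 Hox regions (exact interval 1.54 to 19.9), beside 12.8% of the 33152 regions of the series. Regions with 4 or 5 factors were therefore not more frequent in the Hox windows than in the series. HoxB was also the longest window (200 kb) and had the most peaks (24). Each peak is given with its fold enrichment over background and with its tags, the sequenced reads counted in it. Both values were deposited by the authors and are read only within a list. A percentile is the share of the factor's own list that ranks lower, by fold unless tags are named. The only region with all 5 factors was chr11:96051128-96052221, near the window start on the high-numbered side. Its Tgif1 peak had a fold enrichment of 17.8 and 131 tags, Tgif2 11.3 and 108 tags, Hdac1 9.71 and 83 tags, Nanog 25.1 and 122 tags, and Smad3 6.96 and 32 tags. Its tag numbers were above the median of each list, from the 62.8th percentile for Smad3 to the 93.8th for Tgif1. Its folds ranked lower in each list, up to the 69.9th percentile for Tgif1. The folds of Tgif2, Hdac1 and Smad3 here stood at percentiles 33.0, 41.1 and 7.63, below their list medians.

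The strongest Tgif1 site of all Hox windows lay further on, at chr11:96063905-96065780. Tgif1 reached a fold of 55.6 there with 170 tags, at the 98.9th percentile of its list, in the widest Tgif1 peak of the windows (1731 bp). Tgif2 reached 37.2 (93.5th percentile, 77 tags), its highest Hox value, and Nanog 115 (96.9th percentile, 91 tags). Hdac1 was low by fold, at 8.56 (29.4th percentile), but near the middle of its list by tags (49 tags, 53.4th percentile). The summits of Tgif1, Tgif2 and Hdac1 lay close together, 25 bp from Tgif1 to Tgif2 and 10 bp from Tgif1 to Hdac1.

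The strongest Nanog peak of the windows marked the opposite end of HoxB, at chr11:96235890-96236851, on the side of the low-numbered genes. Nanog reached a fold of 181 with 214 tags there, at the 99.0th percentile of its list. Tgif1 (15.5-fold, 44 tags), Tgif2 (16.5-fold, 49 tags) and Hdac1 (10.3-fold, 32 tags) stood between the 46.6th and the 61.4th percentile of fold. Tgif1 and Tgif2 summits were 4 bp apart, and the Nanog summit lay 141 bp from that of Tgif1.

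The remaining 8 regions of HoxB had 1 or 2 factors. Tgif1 stood alone at chr11:96055347-96056165 (9.51-fold, 35 tags) and chr11:96132066-96133519 (8.44-fold, 71 tags), and with Hdac1 at chr11:96172712-96173784. There the Hdac1 fold was 13.5 and the Tgif1 fold 14.8, but the summits were 519 bp apart. Nanog stood alone in 3 regions with folds from 11.2 to 13.1, with Hdac1 at chr11:96224941-96225701 (14.8-fold) and with Tgif2 at chr11:96226488-96227616 (36.3-fold). By fold the regions with Nanog alone in HoxB stood at or below the 20.4th percentile of the Nanog list, but by tags 2 of the 3 stood at the 48.9th.

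None of the 4 Nanog peaks in HoxA overlapped another list, and so none of the 3 Tgif1 and 4 Tgif2 peaks of HoxA overlapped Nanog. In the whole lists Nanog overlapped 36.7% of Tgif1 and 32.2% of Tgif2 peaks, and 45.0% of the 16625 regions with Nanog had no other factor, so nothing is read from these few peaks. A pair of Nanog peaks lay near the window start on the low-numbered side, at chr6:52103013-52103681 (54.9-fold, 43 tags) and chr6:52103819-52104413 (67.4-fold, 36 tags), the 85.9th and 90.4th percentile of the list. Further Nanog peaks of 17.1-fold and 35.8-fold lay towards the high-numbered genes. The 1 Hdac1 peak of HoxA (6.44-fold, 56 tags) joined Tgif1 (9.87-fold, 67 tags) and Tgif2 (9.86-fold, 55 tags) at chr6:52107920-52109544.

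Beyond the long empty stretch of HoxA, 2 regions held Tgif1 and Tgif2 without any other factor. At chr6:52190172-52190849 Tgif1 reached 35.6-fold (44 tags) and Tgif2 26.9-fold (40 tags), with summits 6 bp apart. By fold these peaks stood at the 95th and the 85.5th percentile of their lists. By tags they stood at the 33.7th and the 19.3rd, below the list medians. At chr6:52206979-52207425 Tgif1 reached 16.7-fold (41 tags) and Tgif2 20.1-fold (68 tags), with summits 17 bp apart, in peaks among the narrowest of both lists (310 and 446 bp). A Tgif2 peak without Tgif1 lay at chr6:52171483-52172354 (11.2-fold, 38 tags).

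By fold, 4 of the 16 HoxC peaks lay above the median of their list, and by tags 7 did. Its Tgif2 peaks were at 6.87-fold, 6.99-fold and 14.9-fold, with a median at the 4.26th percentile of the list by fold and the 31.8th by tags. Its 6 Nanog peaks had a median at the 17.9th percentile by fold and the 43.0th by tags, and 1 of them, chr15:102756679-102757430, reached 84.3-fold with 74 tags (93.7th percentile by fold). Its 3 Tgif1 peaks were even, at 10.2-fold, 11.1-fold and 11.3-fold. Hdac1 had 4 peaks from 4.41-fold to 12.6-fold, with a median at the 14.5th percentile by fold and the 57.6th by tags. The lowest, chr15:102750341-102752189, was the widest Hdac1 peak of the windows (1848 bp), with 58 tags and a fold in the lowest 10% of its list.

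Within HoxC, 4 of the 6 Nanog peaks lay between chr15:102756679 and chr15:102763947, towards the high-numbered genes. There, at chr15:102761716-102762832, Nanog (11.2-fold, 63 tags) met Tgif2 (6.87-fold, 64 tags) and Hdac1 (6.34-fold, 67 tags) without Tgif1, and the Nanog and Tgif2 summits were 1 bp apart. Tgif1, Tgif2 and Hdac1 met without Nanog at chr15:102769606-102770715, with 11.1-fold, 6.99-fold and 7.83-fold. Nanog and Hdac1 shared chr15:102871317-102872632 at the low-numbered end, with 31.4-fold and 12.6-fold. The other 8 regions of HoxC carried 1 factor each: 4 Nanog, 2 Tgif1, 1 Tgif2 and 1 Hdac1.

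HoxD peaks had few tags for their fold. All of its 4 Tgif1 peaks (30 to 40 tags), 2 Tgif2 peaks (40 and 46) and 4 Hdac1 peaks (28 to 35) were below the tag medians of their lists, which were 54, 57 and 47. By fold the Hdac1 peaks of HoxD had a median at the 71.7th percentile and the Tgif2 peaks at the 83.0th. The Tgif1 peaks had theirs at the 41.9th, below the middle by fold too, though higher than by tags (12.6th). The strongest Hdac1 peaks of the 4 windows by fold were the neighbours chr2:74557582-74558351 (15.2-fold, 29 tags) and chr2:74558402-74559351 (17.1-fold, 28 tags). Each overlapped a Nanog peak, of 28.4-fold and 37.0-fold.

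Other HoxD regions combined the factors in different ways. Tgif1 (20.4-fold, 40 tags) and Tgif2 (24.3-fold, 40 tags) met at chr2:74493386-74494224 with summits 2 bp apart. Tgif1 (10.1-fold), Hdac1 (8.44-fold) and Nanog (55.1-fold) met at chr2:74510463-74511503 without Tgif2. The strongest HoxD Nanog peak, chr2:74551432-74552053 (70.1-fold, 46 tags), stood alone, as did the Tgif2 peak of 25.8-fold at chr2:74600664-74601688, the widest Tgif2 peak of the windows (1024 bp). Nanog alone occupied 2 further regions, Tgif1 alone 2 (7.25-fold and 14.4-fold) and Hdac1 alone 1 (12.7-fold).

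Across the 4 windows the median folds were near the middle of their lists, and the median tag numbers of Tgif1, Tgif2 and Hdac1 were below it, within wide intervals. The median Hox peak stood at the 46.4th percentile of fold for Tgif1 (95% interval from order statistics 26.2 to 69.9), the 53.8th for Tgif2 (19.2 to 84.1), the 43.8th for Hdac1 (8.41 to 69.4) and the 58.4th for Nanog (20.4 to 85.9). Every interval held the middle of the list. By tags the medians were at the 28.6th percentile for Tgif1 (13.9 to 65.2), the 31.8th for Tgif2 (14.5 to 62.7), the 26.0th for Hdac1 (10.5 to 67.5) and the 48.9th for Nanog (22.3 to 71.7). The median Hox peak of Tgif1 held 41.5 tags against 54 in the list, that of Tgif2 46 against 57, that of Hdac1 36.5 against 47 and that of Nanog 29 against 30. These intervals also held the middle of the lists. Tgif1 peaks in the windows were wider than the list median (933 bp) in 4 of 16 cases. For Tgif2 this held in 5 of 13, for Hdac1 in 8 of 14 and for Nanog in 12 of 24. The median Tgif1 width stood at the 33.6th percentile (14.6 to 65.7), an interval that held the middle.

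**Figure D3:**
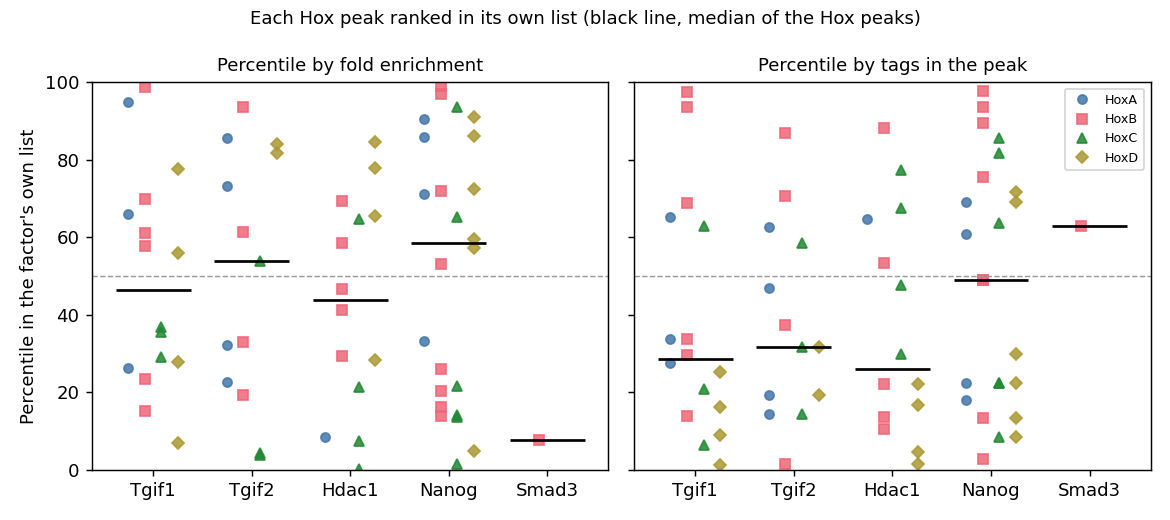
Each Hox peak as its percentile in its own list, by fold enrichment (left) and by tags (right), with symbols for the clusters and a black line at the median. By tags the HoxD symbols of Tgif1, Tgif2 and Hdac1 all lie under the dashed middle line, and the highest Tgif1 and Nanog symbols belong to HoxB.

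Most Hox regions carried a single factor. The 68 peaks formed 41 regions: 25 with 1 factor, 9 with 2, 4 with 3 and 3 with 4 or 5. A single factor was found in 61.0% (exact 95% interval 44.5 to 75.8), beside 43.2% of the 33152 regions of the series. Among peaks that reached the median fold of their list the shares were 56.5% and 55.5%, close to each other. Regions with 3 or more factors numbered 7, or 17.1% (7.15 to 32.1), beside 33.9% of all. Nanog alone was the most frequent class, with 14 regions (34.1%, against 22.6% of all), followed by Tgif1 alone with 6 (14.6%, against 4.50%). Tgif1 with Tgif2 and Hdac1, which made up 14.8% of all regions, was present in 2 (4.88%). Regions with Nanog alone lay in all 4 clusters, 4 in HoxA, 3 in HoxB, 4 in HoxC and 3 in HoxD.

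**Figure D4:**
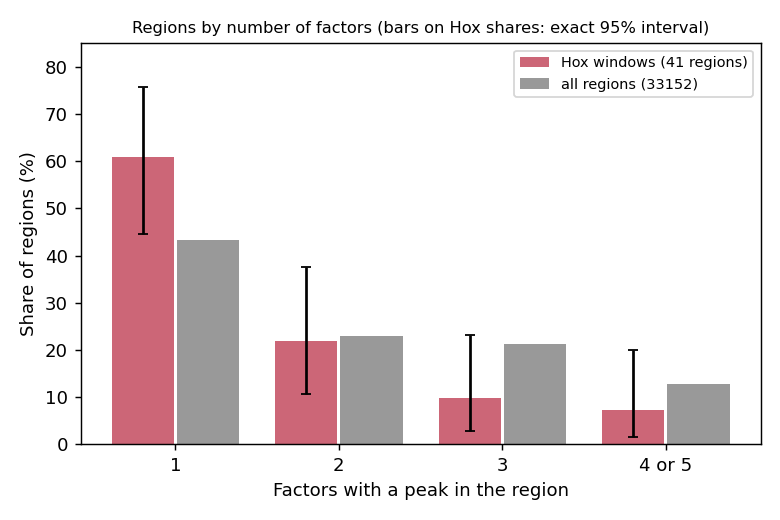
Share of regions (%) with peaks of 1, 2, 3, or 4 or 5 factors in the Hox windows (41 regions, exact 95% intervals) and in the whole series (33152 regions). The Hox share is higher than the series share for 1 factor (61.0% and 43.2%) and lower for 3 factors (9.76% and 21.2%); among peaks that reached their list's median fold the shares for 1 factor were 56.5% and 55.5%.

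Of the 16 Tgif1 peaks, 8 overlapped Tgif2, or 50% (24.7 to 75.3), beside 79.2% of the whole list. All 3 did in HoxA, 3 of 6 in HoxB, 1 of 3 in HoxC and 1 of 4 in HoxD. In the opposite direction, 8 of the 13 Tgif2 peaks overlapped Tgif1, or 61.5% (31.6 to 86.1), close to the 68.0% of the whole Tgif2 list. Hdac1 overlapped 7 of the 16 Tgif1 peaks, or 43.8% (19.8 to 70.1), beside 66.1%, and Nanog 4 of them, or 25% (7.27 to 52.4), beside 36.7%. Of the 24 Nanog peaks, 9 overlapped Hdac1 (37.5%, 18.8 to 59.4, beside 45.9%), 5 Tgif2 (20.8%, beside 36.7%) and 4 Tgif1 (16.7%, 4.74 to 37.4, beside 35.8%). Of the 14 Hdac1 peaks, 9 overlapped Nanog (64.3%, 35.1 to 87.2, beside 45.6%) and 7 overlapped Tgif1 (50%, beside 64.6%). The value of the whole list lay outside the interval for Tgif1 with Tgif2, and inside it for the other shares given here with an interval. It lay outside for 1 of the 20 ordered pairs of lists. Neighbouring peaks are not independent, and the difference was not tested.

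Where Tgif1 and Tgif2 did meet, their summits mostly coincided. The 8 distances were 2, 4, 6, 17, 25, 67, 229 and 501 bp, with a median of 21 bp, beside 41 bp over the 12992 overlapping pairs of the series. The longest belonged to HoxC and the next to HoxA, both in regions that also held Hdac1. The HoxB regions, with 4, 25 and 67 bp, held Hdac1 too. Between Hdac1 and Nanog the median summit distance was 78 bp in 9 regions, from 15 to 531 bp, beside 49 bp in the series. Between peak midpoints it was 54.5 bp, beside 105.5 bp in the series, so the direction turned with the measure. Between Tgif1 and Hdac1 summits the median was 46 bp in 7 regions, beside 65 bp. Between Tgif2 and Hdac1 summits it was longer than in the series, 95 bp in 6 regions beside 70 bp. Between their midpoints it was shorter, 68.5 bp beside 106 bp. The 95% intervals of the summit medians were 2 to 501 bp for Tgif1 with Tgif2, 10 to 519 bp for Tgif1 with Hdac1 and 15 to 340 bp for Tgif2 with Hdac1. Each held the series value.

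The window limits left out some nearby peaks. The nearest peak inside a limit was the Nanog peak 3.15 kb from the end of HoxB, and the nearest outside was a Tgif2 peak 0.877 kb beyond the end of HoxA, chr6:52230877-52231593, with 46.8-fold and 51 tags. Within 60 kb of the windows there were 23 more peaks, 7 before and 10 beyond HoxA, 3 before HoxB, 3 beyond HoxD and 0 around HoxC. The nearest outer peaks of HoxC were 162 kb before and 84.8 kb beyond the window.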

How the data were processed

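The authors deposited 1 peak list per factor for 5 of the 6 samples, made with BWA 0.5.9-r16, MACS and mm9 per the submitters' processing notes. Settings, control library and depth are not given in the sources used here. The lists have no header, so the columns were identified from their values. The deposited fold enrichment is a ratio, and the deposited count per peak was read as tags. Whether starts count from 0 or 1 is not stated.

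Windows of equal length were laid end to end from each Hox window over the range the lists cover on its chromosome. Shares of windows are descriptions, without p-values. Percentiles count lower peaks plus the middle of ties. Shares of regions or peaks have exact Clopper-Pearson 95% intervals. Every region with 4 or 5 factors, the Smad3 peak, and per factor the 3 highest folds, the most tags and the widest peak were named by rule, and other peaks were added to account for the regions. The members and lists were chosen with earlier results of these data known. Gene order and promoters came from RefSeq (GRCm38.p6), a build other than that of the peaks. The window counts were tested on simulated data. Alternatives changed windows, filters, joining and ranking. Python 3.11.15, NumPy 2.4.6, pandas 2.3.3, SciPy 1.17.1 and matplotlib 3.10.9 were used.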

Additional observations from a re-analysis of the deposited data

How the results depend on the processing

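Of the alternative values for the main results, 113 stayed within their limit and 9 did not. The limit was the interval of the main value or, for counts of peaks and regions, a fixed ratio. Some intervals were wide, as for the Smad3 ratio (0.0736 to 16.2), and some settings could hardly change a value. The number that stayed is therefore no measure of how firm the results are. Among the peaks whose fold reached the median of their list, the windows held 14 Nanog, 8 Tgif1, 7 Tgif2, 6 Hdac1 and 0 Smad3 peaks in 23 regions, 0 of them with 4 or 5 factors; this setting shortens each list by construction. Without the HoxB window 0 regions with 4 or 5 factors remained. The Nanog ratio was 2.99 against windows with at least 1 peak, below its interval. No density ratio over the 4 windows fell below 1, except that of Smad3 where the fold filter left it no peak. For single clusters 147 values stayed within their limit, 4 moved and 2 were counted as turned. Turned was used only for counts that few windows reached in the main setting, so it misses other ratios that crossed 1. Among peaks at or above the median tag number, HoxD had 0 Tgif1, 0 Tgif2 and 0 Hdac1 peaks, giving ratios of 0. With the median fold filter the ratio was also 0 for Hdac1 in HoxA, Tgif1 in HoxC and Smad3 in HoxB. Against windows with at least 1 peak it was 0.747 for Hdac1 in HoxA, counted as within its limit. Joining by summits within 200 bp gave 10.6% of Hox regions with 3 or more factors, beside 21.7% of all regions. Without HoxB the median fold percentile of Hdac1 was 28.3, and without HoxD that of Tgif2 was 33.0. Ranking by tags per kb gave the median Hdac1 Hox peak the 16th percentile. No paired analysis was possible because each factor had 1 library. Depth is unknown, so absence of a peak says only that none was listed.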

Other observations

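Around HoxA, outside its window, lay 2 further regions with all 5 factors. At chr6:52054705-52057168, on the side of the low-numbered genes, Nanog reached 72.1-fold with 249 tags, Smad3 7.97-fold, Tgif1 12.5-fold, Tgif2 8.26-fold and the higher of 2 Hdac1 peaks 13.8-fold. At chr6:52263246-52265409, beyond the high-numbered end, the highest of 3 Nanog peaks reached 78.9-fold with 109 tags, Tgif1 22.9-fold with 124 tags, Hdac1 10.6-fold, Tgif2 10.5-fold and Smad3 8.01-fold. Regions with 5 factors made up 2.01% of all regions. Tgif1, Tgif2 and Hdac1 met without Nanog 48.6 kb beyond the end of HoxD, at chr2:74663622-74664676, with 15.6-fold, 11.7-fold and 6.28-fold.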
